A study of Bos taurus with 12 samples.

Results

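Cumulus-restricted transcripts are defined here as transcripts with a TPM value (an estimated count divided by effective length and scaled to the same sum in every library) of at least 10 in at least 5 of the 6 cumulus libraries and with a median TPM over the 6 oocyte libraries of at most 2% of the median over the 6 cumulus libraries. This rule chose 132 of 38030 transcripts. The cumulus part of the rule alone was met by 3006 transcripts, which served as the comparison set. The levels used in the rule describe how the 132 were chosen and were not tested.

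The libraries came from multiparous lactating Holstein cows whose body condition fell (L group) or was held or increased (M/G group) between calving and 27 to 33 d in milk, with diet unaltered. Ovulation was synchronized with Double Ovsynch in every cow, without superovulation. Ovum pickup was made from 1 dominant follicle per cow after the final GnRH of that program. The cells were thus collected weeks after the window in which body condition was scored. In each group, 3 oocyte libraries, each from 1 MII oocyte, and 3 cumulus libraries, each from the cells around 1 oocyte, were analysed. The 12 libraries came from 9 cows, of which 3 gave a library of both kinds. The condition field of the sample records contradicts the title in all 12, and the title was followed for the group. The paper gives more aligned exon reads on average for L than for M/G oocyte libraries. Under the titles the order was the same, with estimated counts of 31810285, 17970492 and 29597824 in L and 8073221, 23205042 and 27742506 in M/G oocytes. Every direction between L and M/G given here rests on the titles.

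Cumulus cells are the somatic granulosa-derived cells that surround the oocyte and are joined to it by projections that cross the zona pellucida and end in gap junctions. They supply the oocyte with metabolites, and around ovulation they lay down a matrix rich in hyaluronan, a process known as cumulus expansion. In this study hyaluronidase was used to separate them from the oocyte, which was then washed and freed of its zona. The deposited tables list transcripts and not genes, and the gene table used here held 0 of the identifiers of the 132. The 132 transcripts are therefore given by identifier, and the cell type of the libraries was not checked against marker genes.

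Several measured differences between libraries bear on what follows. Library totals of estimated counts lay between 6397423 and 31810285. The 10 leading transcripts by count held 54.3% of all counts in cumulus L replicate 3 (10.1 to 20.8% in the other 5) and 29.1% in oocyte M/G replicate 1 (2.63 to 2.91% in the other 5). The TMM factor, edgeR's scaling for library composition, was 0.573 for cumulus L replicate 3 against 1.01 to 1.22 for the other 5 cumulus libraries. The oocyte and cumulus libraries were made with different kits, so cell type and kit cannot be told apart. The deposited effective lengths (the length over which a read can start) also differed in kind. For transcripts over 1000 nucleotides the effective length was the length less 199 nucleotides in every oocyte library, with an SD of 0, whereas in the cumulus libraries this difference varied between transcripts with an SD of 70.8 to 330 nucleotides.

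Most of the 132 transcripts were present at moderate levels in cumulus cells, and a handful were far higher. The median TPM over cumulus libraries was 45.0 for the median transcript, with quartiles of 25.1 and 89.7 and a range of 11.6 to 72846. The corresponding median in the comparison set was 38.2. Of the 132, 75 had a median below 50 TPM, 28 above 100 TPM, 5 above 1000 TPM and 3 above 10000 TPM. In the comparison set, which includes these 3, 16 were above 10000 TPM.

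The highest was ENSBTAT00000014734.5, a transcript of 171 nucleotides. Its level was 68504, 45059 and 26501 TPM in cumulus L replicates 1 to 3 and 77188, 110394 and 82590 TPM in cumulus M/G replicates 1 to 3. All M/G libraries lay above all L libraries on this scale. Because it is so short, its effective length was 9.51 nucleotides in all libraries, and its TPM is large for its reads. It had 5873, 2844 and 5432 estimated counts in the L libraries and 12886, 19776 and 7597 in the M/G libraries, between 0.0434 and 0.166% of cumulus counts. After TMM scaling the groups overlapped (edgeR log2 fold change of −0.73 for L over M/G, unadjusted p = 0.152, adjusted p = 1.00).

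The next was ENSBTAT00000044397.3, of 855 nucleotides, with 11075, 10039 and 8874 TPM in cumulus L replicates 1 to 3 and 23726, 19781 and 14280 TPM in cumulus M/G replicates 1 to 3. The groups did not overlap in TPM but did after TMM scaling (log2 fold change of −0.57, unadjusted p = 0.239, adjusted p = 1.00). ENSBTAT00000077396.1, of 292 nucleotides, had 15507, 23678 and 1079 TPM in the L libraries and 4381, 5200 and 29621 TPM in the M/G libraries. Its highest library was M/G replicate 3 and its lowest was L replicate 3, and the group ranges overlapped (log2 fold change of 0.02). ENSBTAT00000074310.1, of 369 nucleotides, had 761, 428 and 2174 TPM in the L libraries and 3693, 3104 and 641 TPM in the M/G libraries, also with overlap.

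ENSBTAT00000011655.5, of 1550 nucleotides, was the fifth in level and the highest with whole estimated counts in every library. Its level was 1102, 921 and 204 TPM in cumulus L replicates 1 to 3 and 1347, 969 and 1192 TPM in cumulus M/G replicates 1 to 3. In TPM the L replicate 3 value lay far below the other 5. After TMM scaling the CPM (counts scaled to a common library total) was 2052, 1143 and 996 in the L libraries and 2690, 2097 and 1801 in the M/G libraries, so that L replicate 3 was then close to L replicate 2 and the groups overlapped (log2 fold change of −0.65, unadjusted p = 0.116, adjusted p = 1.00).

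**Figure D1:**
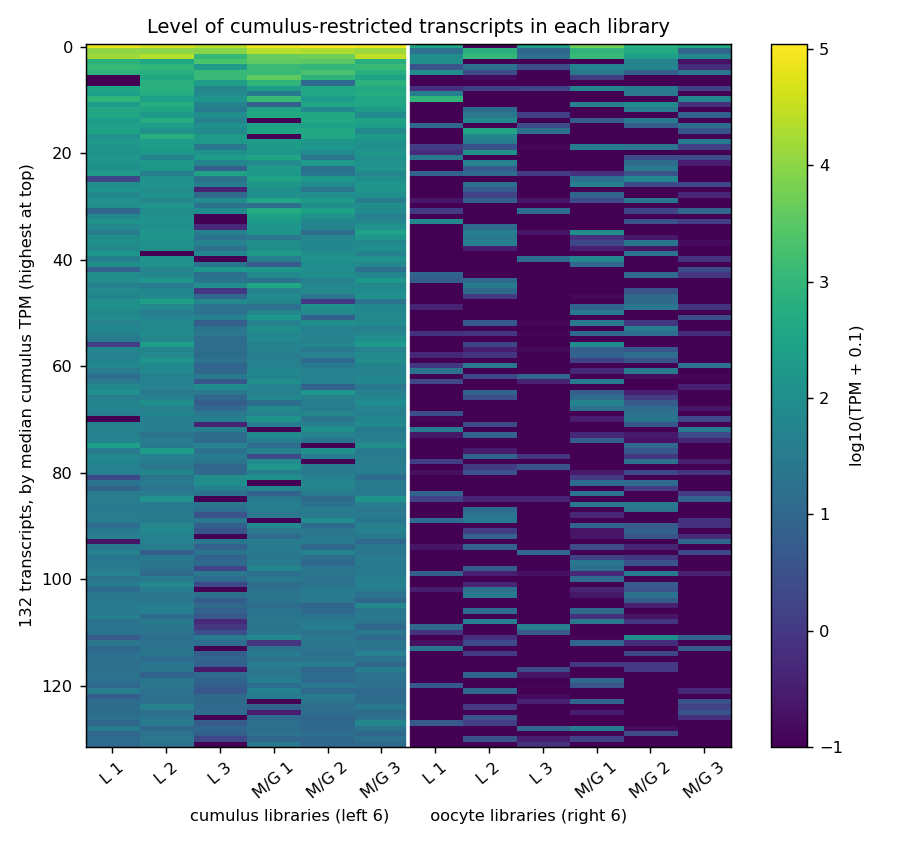
Level of each of the 132 transcripts (rows, ordered by median cumulus TPM) in the 6 cumulus and 6 oocyte libraries (columns), as log10(TPM + 0.1) in color. Nearly every row is bright in most cumulus columns, with dark cells most frequent in L 3, and the oocyte columns hold scattered bright cells, most of them in L 2, M/G 1 and M/G 2.

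The cumulus-restricted transcripts tended to be shorter than the comparison set, a difference given here without a test. Their median length was 1425 nucleotides, with quartiles of 696 and 2553 and a range of 171 to 9906, against a median of 1752 in the comparison set and 2013 over all 38030. Of the 132, 10 (7.58%) were under 300 nucleotides, against 2.50% of the comparison set. Among the 132, longer transcripts had lower TPM levels (Spearman's rho of −0.417 across transcripts, which are not independent replicates), and 7 of the 10 highest were under 500 nucleotides. TPM divides by effective length, so length and level share a term.

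Divided reads were also more common among the 132. A fractional estimated count shows that Kallisto divided reads that matched several transcripts. Of the 132, 16 (12.1%) had whole counts, within 0.001, in all 12 libraries, against 31.1% of the comparison set. Over the cumulus libraries alone, 19 of the 132 (14.4%) had whole counts, against 33.8% of the comparison set. The level of a transcript with fractional counts is uncertain to the extent that its reads could belong to a related sequence. Identifiers in their first version made up 50.8% of the 132, 30.9% of the comparison set and 47.2% of all transcripts.

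The spread between cumulus libraries was larger for the cumulus-restricted transcripts than for the comparison set. The SD of log2(TPM + 1) over the 6 libraries had a median of 1.19 among the 132, with quartiles of 0.819 and 1.72 and a range of 0.278 to 4.17, against a median of 0.929 in the comparison set. The median coefficient of variation of TPM was 62.9% against 51.7%. An SD above 2 was found for 24 of the 132 and an SD below 0.5 for 8. Without cumulus L replicate 3 the median SD fell to 0.740, against 0.551 in the comparison set.

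The steadiest of the 132 was ENSBTAT00000081998.1 (1830 nucleotides, SD 0.278), with 180, 209 and 184 TPM in cumulus L replicates 1 to 3 and 212, 159 and 126 TPM in cumulus M/G replicates 1 to 3. ENSBTAT00000000944.4 (4488 nucleotides, SD 0.280) was almost as steady at 23.7, 24.98 and 16.6 TPM in the L libraries and 21.1, 28.7 and 18.3 TPM in the M/G libraries. Its counts were whole in every library, from 794 to 2384 in cumulus cells. Neither had a group whose libraries all lay on one side of the other group.

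The most variable was ENSBTAT00000074749.1 (411 nucleotides, SD 4.17), with 0.00136, 407 and 1186 TPM in cumulus L replicates 1 to 3 and 3671, 833 and 300 TPM in cumulus M/G replicates 1 to 3. After TMM scaling M/G replicate 1 and L replicate 3 were its highest libraries, at a CPM of 1155 and 888. ENSBTAT00000065532.2 (492 nucleotides, SD 3.97) had 3.87e-06, 612 and 208 TPM in the L libraries and 877, 12.6 and 745 TPM in the M/G libraries. For both the value near 0 was in cumulus L replicate 1 alone, and both had fractional counts. ENSBTAT00000065532.2 was at 0 counts in all 6 oocyte libraries.

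Of the 132, 55 reached 10 TPM in all 6 cumulus libraries and 77 missed it in 1. The missed library was L replicate 3 for 44 of the 77 (57.1%) and M/G replicate 1 for 13, L replicate 1 for 11, M/G replicate 2 for 6, L replicate 2 for 3 and M/G replicate 3 for 0. In the comparison set, L replicate 3 was the missed library for 79.1% of those that missed 1. Cumulus L replicate 3 was therefore the library most often low in both sets. The rule allows only 1 miss, so these counts partly follow from it.

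**Figure D2:**
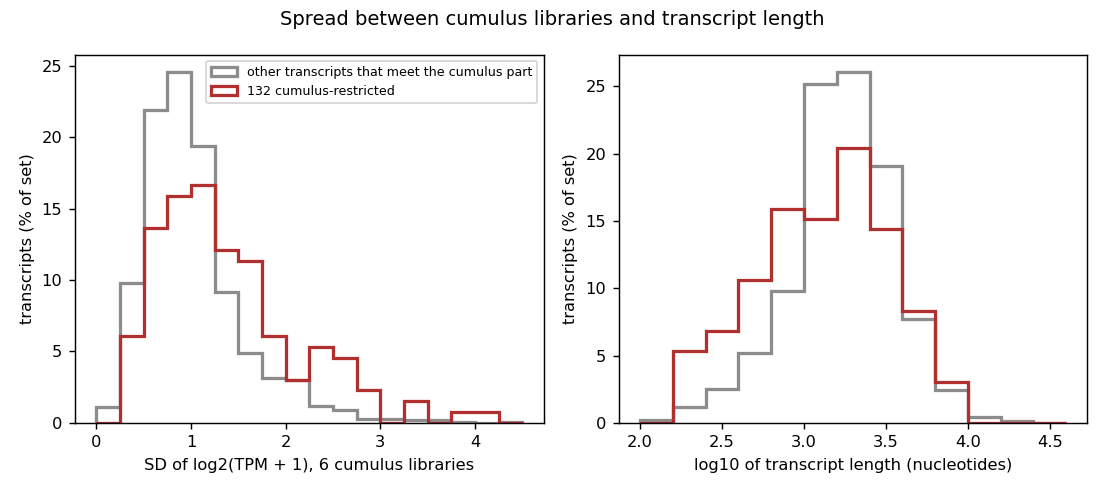
Distribution of the SD of log2(TPM + 1) over 6 cumulus libraries (left) and of log10 transcript length in nucleotides (right), as percent of each set, for the 132 cumulus-restricted transcripts (red) and the other transcripts that meet the cumulus part of the rule (gray). The red distribution is shifted to the right in SD, with a median of 1.19, and to the left in length, with a median of 1425 nucleotides, and the ranges of the sets overlap.

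Across the 132, cumulus libraries ranked the transcripts alike to a moderate degree and oocyte libraries hardly at all. Spearman's rho between cumulus libraries ranged from 0.380 to 0.827, with a median of 0.497 over 15 pairs. Between oocyte libraries it ranged from −0.0592 to 0.428, with a median of 0.0896. An oocyte and a cumulus library of the same cow had rho values of 0.0808, 0.184 and 0.264 in the 3 cows with both, inside the range of the 33 pairs from different cows, which was −0.000399 to 0.334 with a median of 0.201. These coefficients are across transcripts chosen by the rule, and the 2 kinds of library differ in kit. Between 50 and 96 of the 132 had 0 counts in each oocyte library, against 0 to 9 in each cumulus library. The oocyte ranks therefore hold many ties, which the low oocyte median set by the rule favors.

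In cumulus cells the 132 together took 10.7, 9.31 and 4.54% of TPM in L replicates 1 to 3 and 12.7, 15.1 and 13.9% in M/G replicates 1 to 3. On this scale the groups did not overlap, with 8.18 ± 3.23% (SD, n = 3) in L and 13.9 ± 1.21% (SD, n = 3) in M/G. By estimated counts the share was 3.36, 3.01 and 2.46% in the L libraries and 5.29, 4.80 and 3.57% in the M/G libraries, again without overlap, with 2.94 ± 0.453% (SD, n = 3) in L and 4.55 ± 0.882% (SD, n = 3) in M/G. Divided by the TMM factors, a scaling added after seeing the data, the count shares were 2.95, 2.46 and 4.29% in the L libraries and 5.02, 4.74 and 3.04% in the M/G libraries, which overlapped, with L replicate 3 the highest of its group and no longer the lowest. The 3 highest transcripts held between 80.4 and 90.8% of the TPM on the 132 in each cumulus library. Without these 3, the TPM share of the other 129 was 1.17 ± 0.271% (SD, n = 3) in L and 1.68 ± 0.454% (SD, n = 3) in M/G, and the ranges of 0.891 to 1.43% and 1.28 to 2.17% overlapped. In counts the 129 took 1.84, 1.95 and 1.15% of the L libraries and 2.57, 2.33 and 1.85% of the M/G libraries, which overlapped as well.

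In oocytes the 132 were a small part of every library, which the rule's limit on their oocyte median favors, and unevenly so. By estimated counts they took 0.0274% (95% Wilson interval 0.0269 to 0.0280), 0.142% (0.141 to 0.144) and 0.0220% (0.0215 to 0.0226) of L replicates 1 to 3. In M/G replicates 1 to 3 they took 0.583% (0.578 to 0.588), 0.202% (0.1997 to 0.2034) and 0.0202% (0.0196 to 0.0207). PCR copies are not independent molecules, so these intervals reflect counting error alone. M/G replicate 1 had the largest share, followed by M/G replicate 2 and L replicate 2, and the other 3 libraries lay well below. Whether these reads came from the oocyte itself or from cumulus cells left on it was not tested. By TPM the shares were 0.185, 0.300 and 0.0372% in the L libraries and 0.814, 0.243 and 0.0692% in the M/G libraries. The groups overlapped on both scales, at 0.174 ± 0.132% (SD, n = 3) in L and 0.375 ± 0.389% (SD, n = 3) in M/G for TPM. For transcripts chosen without the library read, the TPM shares were higher, at 0.287, 1.36 and 0.0748% in the L libraries. They were 1.79, 0.935 and 0.153% in the M/G libraries.

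The place of oocyte M/G replicate 1 depended on the scale. ENSBTAT00000014734.5 alone held 62.1% of its TPM on the 132, at 5051 TPM from 746 counts. Without the 3 highest transcripts, the TPM share of the other 129 was 0.140, 0.126 and 0.0142% in the L libraries and 0.0988, 0.104 and 0.0267% in the M/G libraries, so that L replicate 1 came first. By counts the 129 still took the most of M/G replicate 1, at 0.435%, against 0.0190 to 0.176% in the other 5 oocyte libraries. Without ENSBTAT00000014734.5 alone, its TPM share was 0.308%, close to the 0.300% of L replicate 2. Over the 16 transcripts with whole counts its TPM share was 0.0111%, below L replicate 2 at 0.0230% and M/G replicate 2 at 0.0226%. Other settings raised the TPM share of M/G replicate 1. It was 2.48% with the 10 leading transcripts of each library left out, against 0.308% in L replicate 2, the next. For transcripts chosen without the library read it was 1.79%, against 1.36% in L replicate 2.

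**Figure D3:**
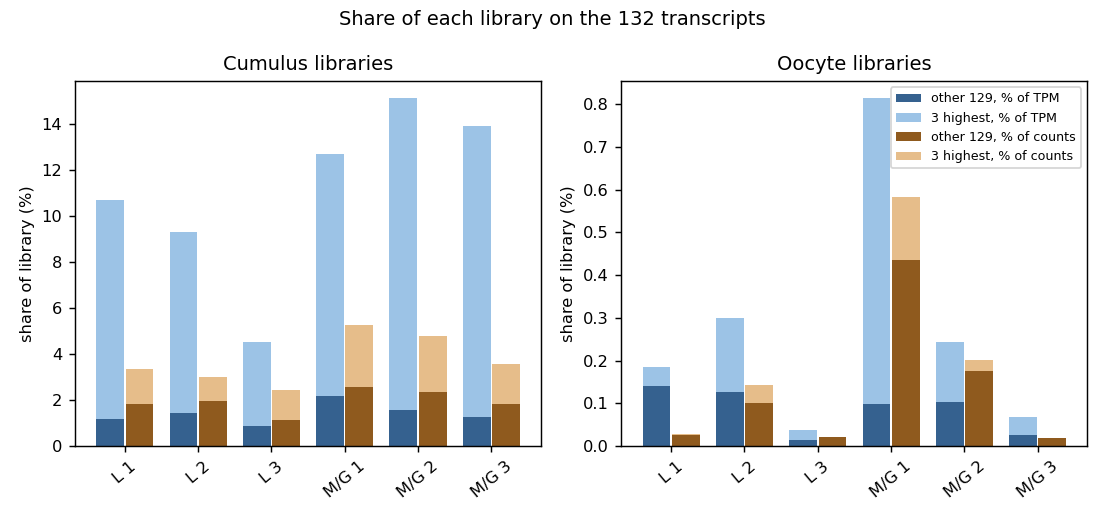
Share of each cumulus library (left) and oocyte library (right) on the 132 transcripts, in percent of TPM (blue) and of estimated counts (brown), split into the 3 highest transcripts (light) and the other 129 (dark). The vertical axes differ, with cumulus TPM shares of 4.54 to 15.1% and oocyte TPM shares of 0.0372 to 0.814%, and the light parts make up most of each cumulus TPM bar.

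The same 3 oocyte libraries held reads for the largest number of the 132. More than 3 counts, the limit used for detection, were found for 39, 65 and 24 transcripts in oocyte L replicates 1 to 3 and for 61, 69 and 47 in oocyte M/G replicates 1 to 3. At these depths 3 counts corresponded to between 0.0943 and 0.372 CPM. M/G replicate 1 had the fewest counts in all and yet 61 detected transcripts. A TPM above 2% of the cumulus median was reached by 24, 54 and 12 transcripts in the L libraries and by 51, 62 and 26 in the M/G libraries. Above 50% of the cumulus median were 4, 10 and 2 in the L libraries and 14, 10 and 1 in the M/G libraries. Among the 16 transcripts with whole counts, which showed no division of reads, the numbers above 2% were 1, 10 and 0 in the L libraries and 8, 12 and 1 in the M/G libraries, so L replicate 2, M/G replicate 1 and M/G replicate 2 stood out there too.

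**Figure D4:**
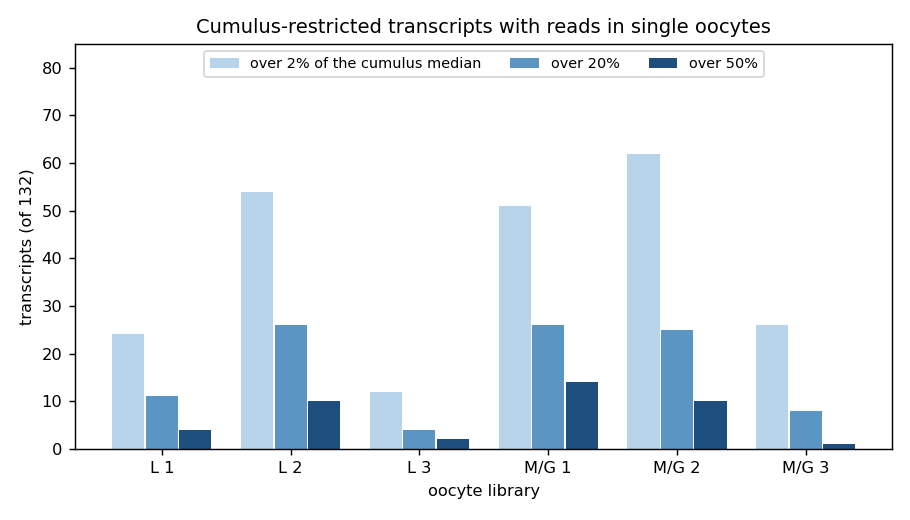
Number of the 132 transcripts whose TPM in each oocyte library (horizontal axis) was above 2, 20 or 50% of their median cumulus TPM (light to dark bars). L 2, M/G 1 and M/G 2 hold 54, 51 and 62 transcripts above 2%, and the other 3 libraries hold 12 to 26.

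The 3 highest transcripts in cumulus cells were also those with the highest TPM in any oocyte. ENSBTAT00000014734.5 was at 324, 0 and 204 TPM in oocyte L replicates 1 to 3 and at 5051, 694 and 349 TPM in oocyte M/G replicates 1 to 3. ENSBTAT00000044397.3 was at 19.2, 668 and 11.1 TPM in the L libraries and at 931, 465 and 9.66 TPM in the M/G libraries. ENSBTAT00000077396.1 was at 104, 1065 and 16.03 TPM in the L libraries and at 1166, 226 and 66.4 TPM in the M/G libraries. L replicate 2 was thus at 0 for the first of these and near the top for the other two.

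Of the 132, 2 of those named here had whole counts in every library. ENSBTAT00000011655.5 had 97, 298 and 71 counts in oocyte L replicates 1 to 3 and 1137, 1262 and 14 counts in oocyte M/G replicates 1 to 3, or 0.534 to 54.2 TPM. ENSBTAT00000000944.4 had 0, 1666 and 1 counts in the L libraries and 10, 1412 and 0 counts in the M/G libraries. In oocyte L replicate 2 its level was 27.5 TPM and in M/G replicate 2 it was 18.7 TPM, both inside its range of 16.6 to 28.7 TPM in cumulus cells. A transcript could therefore meet the rule while 2 of 6 oocytes held it at the cumulus level.

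In the oocyte library where each transcript was highest, its TPM reached 10 for 80 of the 132, passed 50% of the cumulus median for 35 and passed the whole cumulus median for 13. Above 2% of the cumulus median, 10 of the 132 were found in 0 oocyte libraries, 33 in 1, 71 in 2 and 18 in 3. The rule bounds this number, since a transcript above the limit in more than 3 of the 6 libraries would have a median above it. More than 3 counts were absent from all 6 oocyte libraries for 9 of the 132, of which 5 had 0 counts in each. One extreme case, chosen after its values were seen, was ENSBTAT00000008388.5 (180 nucleotides), with 906 TPM in oocyte L replicate 1, 58.2 TPM in M/G replicate 3 and 0 in the other 4 oocyte libraries, against a cumulus median of 314 TPM. The 906 TPM came from 215 counts.

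Choosing the transcripts again without 1 oocyte library, and then reading that library, gave a measure the choice had not used. Of 161 transcripts chosen without L replicate 1, 95 (59.0%) were at or below 2% of the cumulus median in it. The same held for 74 of 310 (23.9%) without L replicate 2 and for 103 of 138 (74.6%) without L replicate 3. In the M/G group it held for 75 of 294 (25.5%) without replicate 1, 67 of 301 (22.3%) without replicate 2 and 95 of 155 (61.3%) without replicate 3. Transcripts chosen on 5 oocytes were thus mostly above the limit in L replicate 2, M/G replicate 1 and M/G replicate 2, and mostly below it in the other 3 libraries. The number chosen also rose from 132 to 294 or more when any of these 3 libraries was left out, because low libraries then made up the middle of the remaining 5. The lists were therefore not equally strict, and part of the contrast in percentages follows from how each was chosen.

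The cumulus part of the rule was read in the same way. Of the transcripts chosen without a library, 78.2, 89.4 and 40.7% reached 10 TPM in cumulus L replicates 1 to 3 and 63.7, 75.1 and 90.9% in cumulus M/G replicates 1 to 3. Cumulus L replicate 3 again stood lowest, with 92 of 226.

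The transcripts next to the limit show how it divides. Just inside it were ENSBTAT00000021494.6, whose oocyte median was 1.97% of its cumulus median, and ENSBTAT00000044397.3, at 1.91%. Just outside were ENSBTAT00000025687.3, at 2.02%, and ENSBTAT00000081590.1, at 2.04%. The transcripts outside the list whose log2(TPM + 1) profile over the 12 libraries was most like the mean profile of the 132 were ENSBTAT00000022890.6 (Pearson's r = 0.990), ENSBTAT00000063682.2 (r = 0.988) and ENSBTAT00000004190.5 (r = 0.986). Their oocyte medians were 2.53, 15.4 and 4.28% of their cumulus medians.

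The comparison of L with M/G asks whether body condition loss went with a different level of these transcripts. Each cell type was fitted apart with edgeR's quasi-likelihood test over all transcripts that passed an FPKM filter (counts scaled for library total and effective length, above 1 in at least 1 library). In bulk RNA, fewer cells of a type and less RNA per cell cannot be told apart.

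In cumulus cells all 132 were among the 23699 tested, and 0 of them had an adjusted p-value under 0.05 (background 0% of transcripts tested). Before adjustment, 0 of 132 had edgeR p-values under 0.05, against a background of 1.53%. The number was 6 with limma-voom and 0 to 5 under the other alternatives, with 5 without L replicate 3 and 4 without L replicate 1. The share over all transcripts was not counted for those fits, so 1.53% is not their background. The smallest edgeR p-value was 0.0532 (adjusted p = 1.00). DESeq2's Wald test also called 0 of the 132, against a background of 0.781%. The log2 fold changes of L over M/G ranged from −2.21 to 2.49, with 24 beyond 1 in either direction. The median SD within groups was 1.07 on the log2 scale.

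The fitted values leaned to lower levels in L, as they did in the comparison set. The log2 fold change was below 0 for 82 of the 132 (62.1%), against a background of 47.5% and against 61.7% in the comparison set, and it was above 0 for 50. Its median was −0.20 among the 132, −0.11 in the comparison set and 0.07 over all transcripts. Scaling by library totals in place of TMM moved the split to 96 below 0 and the median to −0.33, while the median over all transcripts moved from 0.07 to −0.05. Without L replicate 2 the median among the 132 was −0.09 and that over all transcripts −0.17, so that the 132 then lay above the rest. In 6 of the 132 (4.55%) all L libraries were below all M/G libraries, against a background of 2.40%, and in 1 (0.758%) they were all above, against a background of 2.24%.

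**Figure D5:**
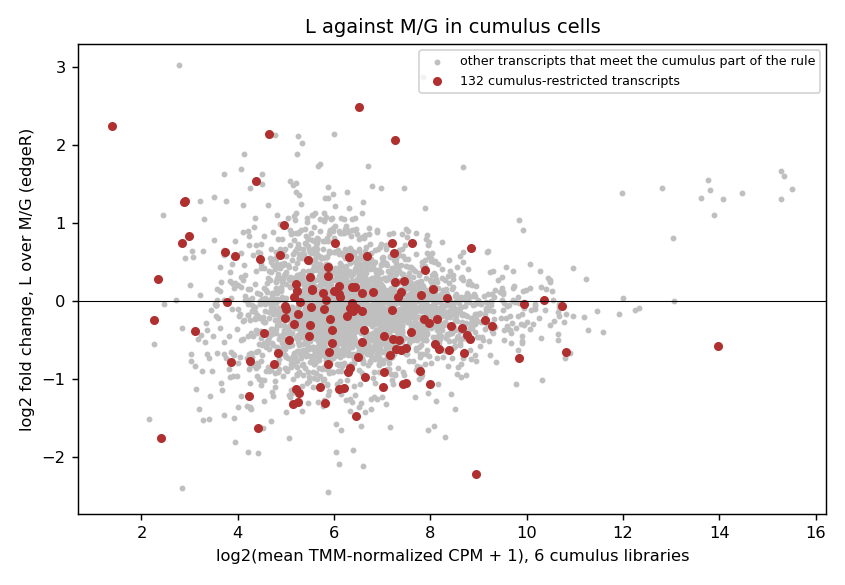
Log2 fold change of L over M/G in cumulus cells (vertical axis, edgeR) against log2 of the mean TMM-normalized CPM plus 1 over 6 cumulus libraries (horizontal axis), for the 132 cumulus-restricted transcripts (red) and the other transcripts that meet the cumulus part of the rule (gray). The red points lie among the gray ones, with 82 of 132 below 0 and a range of −2.21 to 2.49, and 0 passed the test.

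Among the 132, the smallest p-value with a higher level in L was that of ENSBTAT00000069599.1 (963 nucleotides). Its TMM-normalized CPM was 100, 176 and 186 in cumulus L replicates 1 to 3 and 65.9, 1.08 and 15.5 in cumulus M/G replicates 1 to 3. All L libraries lay above all M/G libraries, by a narrow margin at M/G replicate 1. The edgeR log2 fold change was 2.49 (unadjusted p = 0.0532, adjusted p = 1.00), and DESeq2 gave 2.50 (SE 1.39, adjusted p = 0.966). The edgeR value ranged from 1.92 to 4.21 with 1 library left out, with the highest without M/G replicate 1, and limma-voom gave 3.81. ENSBTAT00000021494.6 (762 nucleotides) came next, with CPM values of 137, 17.6 and 580 in the L libraries and 126, 19.7 and 30.3 in the M/G libraries. Its groups overlapped, and its log2 fold change of 2.06 (edgeR, unadjusted p = 0.0960) was 0.40 without L replicate 3 and 3.30 without M/G replicate 1. With limma-voom it was 1.12.

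In the other direction, ENSBTAT00000072637.1 (1566 nucleotides) had CPM values of 59.9, 58.4 and 20.2 in the L libraries and 189, 100 and 94.7 in the M/G libraries, with no overlap. The edgeR log2 fold change was −1.47 (unadjusted p = 0.0543, adjusted p = 1.00), and DESeq2 gave −1.46 (SE 0.876, adjusted p = 0.996). ENSBTAT00000074058.1 (3384 nucleotides) had CPM values of 6.87, 296 and 220 in the L libraries and 1321, 836 and 268 in the M/G libraries. Its groups overlapped at L replicate 2, and its log2 fold change was −2.21 (edgeR, unadjusted p = 0.0604, adjusted p = 1.00), with −2.80 to −1.64 when 1 library was left out and −3.28 with limma-voom. None of the 4 passed the threshold after adjustment. All 4 had fractional counts in the cumulus libraries, so their levels carry the uncertainty of divided reads.

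In oocytes 121 of the 132 passed the FPKM filter, and 0 of the 121 had an adjusted p-value under 0.05 with edgeR (background 0%). An unadjusted p-value under 0.05 was found for 15, against a background of 2.18%, and 13 of the 15 were lower and 2 higher in L. Of the 121, 80 had a log2 fold change below 0 (background 46.4%, and 64.7% in the comparison set), 7 had all L libraries below all M/G libraries (background 2.09%) and 0 had them all above (background 4.03%). Of these 15, 10 had at most 3 counts in every L library, and the highest oocyte library was M/G replicate 1 for 7, M/G replicate 2 for 6 and L replicate 3 for 2. With 1 library left out, the number with an unadjusted p-value under 0.05 ranged from 7 of 111 without M/G replicate 1 to 22 of 116 without M/G replicate 3, and DESeq2 gave 22 of 121. The share over all transcripts was not counted for these fits, so 2.18% is not their background. Without M/G replicate 1, 54 of 111 had a log2 fold change below 0. A low-median transcript passed the filter only through the libraries in which it was high, so these counts give no support for a difference. DESeq2 called 8 of the 121, against a background of 1.31%, 7 lower and 1 higher in L. It gave no adjusted p-value for 82, which its filters on outlying and low counts set aside. Of the 8, 5 had at most 3 counts in every L library and 1 in every M/G library. Their highest oocyte library was M/G replicate 1 for 3, M/G replicate 2 for 4 and L replicate 3 for 1. The same limit of the filter holds for these 8, so they give no support for a difference either.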

How the data were processed

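RNA was measured in 6 oocyte and 6 cumulus libraries of dairy cows. The authors trimmed reads with fastp and quantified them with Kallisto 0.44.0 (per the submitters' processing notes) on the Ensembl bovine cDNA set. The deposited tables give an estimated count, not normalized, and a TPM value, which the authors' pipeline scaled for effective length and library total, for each transcript. The 132 transcripts, the comparison set and every list were chosen with earlier results of these data known. Groups and replicate numbers were taken from titles.

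The rule was applied to deposited TPM. Estimated counts were rounded, FPKM was computed from them, and an FPKM above 1 in any of the 6 libraries was required. L was compared with M/G within each cell type with edgeR 4.0.16 (TMM, quasi-likelihood F test, no covariate) and Benjamini-Hochberg adjustment over all transcripts tested, in R 4.3.3. DESeq2 1.42.0 (default settings) and limma 3.58.1 were alternatives, with other scalings, filters and rule thresholds and each library left out. The edgeR test was tried on simulated counts whose spread between replicates was far smaller than that of the chosen transcripts. That trial therefore does not show how the test performs on them. Replicates of a group and cell type came from separate cows, and 3 libraries per group limit the precision. Detection was set at more than 3 counts, and 3 counts were 0.0943 to 0.469 CPM. Intervals are 95% Wilson intervals.

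Named transcripts were the 5 highest in cumulus cells, the 3 highest in any oocyte, the 2 with the smallest and the 2 with the largest spread, the pairs next to the ratio limit on each side, the 3 other transcripts most alike, and, for L against M/G in cumulus cells, the 2 smallest p-values in each direction. Marker and pathway gene lists were not used here, since no source here gives the gene of a transcript.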

Additional observations from a re-analysis of the deposited data

Results flagged for a closer look

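Of 24 sets of values examined for a library far from the rest of its cell type, 6 held one by Dixon's criterion. By chance about 1 in 20 sets holds one, but that rate does not apply here, because the rule used these TPM values and some of the transcripts were picked for a large spread or a small p-value, so the 6 are given as a description. Oocyte M/G replicate 1 stood above the other 5 oocyte libraries in the share of TPM on the 132 transcripts, at 0.814%, and in the share of counts, at 0.583%. The number of the 132 under 10 TPM, which the rule limits, was 44 in cumulus L replicate 3. The other 3 hold in TPM and were less marked or absent after TMM scaling. ENSBTAT00000011655.5 was at 204 TPM in cumulus L replicate 3, the lowest, but its TMM-normalized CPM there was 996, against 1143 in L replicate 2. ENSBTAT00000074749.1 was highest in cumulus M/G replicate 1 at 3671 TPM, where its CPM was 1155, against 888 in L replicate 3. ENSBTAT00000069599.1 was highest in cumulus L replicate 2 at 266 TPM, but its CPM was 176 there and 186 in L replicate 3. The TMM factor of cumulus L replicate 3 was 0.573, with 54.3% of its counts on 10 transcripts. In oocyte M/G replicate 1 the 10 leading transcripts held 29.1% of counts, and with the 10 leading transcripts of each library left out of TPM its share of the 132 was 2.48%, against 0.308% in the next library.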

How the results depend on the processing

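The number of transcripts the rule chose, 132, became 223 with a ratio of at most 0.05, 202 at 5 TPM, 76 at 20 TPM and 55 when all 6 cumulus libraries had to pass. Leaving out 1 library gave 138 to 310, with 226 without cumulus L replicate 3, 310 without oocyte L replicate 2, 294 without oocyte M/G replicate 1 and 301 without oocyte M/G replicate 2. A ratio of at most 0.01 gave 107, and TPM without the 10 transcripts with the most counts gave 158. Alternatives chosen after seeing the data gave 139 with the oocyte tables' effective lengths in all libraries, of which 128 were among the 132, and 122 with at least 300 nucleotides. When the transcripts were chosen without that library, the TPM share was higher in all 6 oocyte libraries, at 0.287, 1.36 and 0.0748% in L replicates 1 to 3 and 1.79, 0.935 and 0.153% in M/G replicates 1 to 3. In M/G replicate 1 it was 2.48% without the 10 leading transcripts. Also in M/G replicate 1, alternatives chosen after seeing the data gave 0.308% without the shortest transcript, 0.0988% without the 3 highest and 0.0111% for those with whole counts. The median SD between cumulus libraries ranged from 0.740 to 1.29 with a library left out, and 0.740 was the value without cumulus L replicate 3. Calls between L and M/G among the 132 stayed at 0 in cumulus cells in all 13 alternatives. In oocytes they were 8 with DESeq2 and 0 in the other 12. The median log2 fold change in cumulus cells stayed below 0 in all 14 alternatives, between −0.37 and −0.07. The same replicate number does not mark a shared cow or a stated batch, and deviations of same-numbered libraries had a mean correlation of −0.17 in cumulus cells and −0.04 in oocytes, so the numbers did not pair the libraries. With the replicate block, 0 of the 132 were called in either cell type, and the median log2 fold change in cumulus cells was −0.27.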
